A study of Mus musculus with 3 samples.

Results

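PU.1 binding was described at 58 mouse genes for chemokines and their receptors, among 21900 protein-coding genes. The members were chosen by symbol: protein-coding RefSeq genes of build mm10 (GRCm38.p6) named Ccl, Cxcl, Ccr or Cxcr with a number, together with Cx3cl1, Cx3cr1, Xcl1 and Xcr1. They comprise 39 ligand genes and 19 receptor genes. The rule itself reads gene names only. A peak was counted for a member where it overlapped the gene span plus 5 kb on each side, by at least 1 bp, and a peak within reach of several members was given to the nearest.

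The data are ChIP-seq peak lists from i660BM cells, mouse pro-B cells (strain C57BL/6) grown as a line with IL-7, in which PU.1 can be induced with doxycycline. Both PU.1 libraries, titled PU.1_2 and PU.1_3 and called library 2 and library 3 here, came from cells given doxycycline at 70 ng/ml for 24 h and were precipitated with the same rabbit polyclonal antibody to PU.1. The third sample, input DNA with treatment given as none, was not analysed here. All samples share the cell line, so the data hold 1 condition in 1 line. With no peak list of uninduced cells used here, binding that depends on induced PU.1 and binding that does not cannot be told apart, and no test between conditions was possible. The labels do not say that the libraries came from separate cultures, so differences between them may be technical.

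PU.1, encoded by Spi1, is an ETS-family transcription factor that binds purine-rich DNA around the letters GGAA and is needed for myeloid and early lymphoid development. Chemokines are small secreted proteins that steer cell migration, and their receptors signal through heterotrimeric G proteins. In B-lineage cells Cxcr4 retains precursors in the bone marrow near cells that secrete Cxcl12, Cxcr5 and Ccr7 guide mature cells within lymphoid organs, and receptors such as Ccr2 and Cx3cr1 mark monocytes.

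The lists differed greatly in length, with 74494 peaks in library 2, 6169 in library 3 and 49385 intervals in the authors' merged list. Each peak in the first and second of these carries a score of the authors' peak caller, which is the peak's own value within its list and is not comparable between lists. Scores ran from 70.0 to 3233 in library 2 and from 70.0 to 3100 in library 3. A value of 3100 is shared by many peaks and acts as a ceiling, reached or passed by 3.57% of library 2 peaks and 0.178% of library 3 peaks. Read depth was not given in the files used here.

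Receptor genes carried PU.1 peaks at a larger share than ligand genes in library 2. A peak was found at 30 of 58 members (51.7%, exact binomial 95% interval 38.2 to 65.0), where 70.7% of all protein-coding genes had one counted the same way. Among receptors 15 of 19 had a peak (78.9%, 54.4 to 93.9), and among ligands 15 of 39 (38.5%, 23.4 to 55.4). The intervals cover counting error only, and genes are not independent replicates. The interval of all members and that of the ligands lay below the background share, and the interval of the receptors held it. The difference between receptors and ligands was not tested. Of the ligands without a peak, 6 lie in a chromosome 4 stretch that holds near-identical copies of Ccl21 and Ccl27 genes. Ccl21c is listed before the first library 2 peak of that chromosome. Both points, taken up below, may lower the ligand share.

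Gene length bears on these shares, because a longer span gives a wider window. The median span was 3.88 kb for ligands, 7.25 kb for receptors and 17.1 kb for all protein-coding genes. Among genes with spans of at most 20 kb, a limit chosen after the data were seen, a library 2 peak was found at 57.3% of protein-coding genes, at 27 of 54 members (50.0%), at 14 of 18 receptors (77.8%) and at 13 of 36 ligands (36.1%). Counted per length of window, library 2 had 0.980 peaks per 10 kb at receptors and 0.425 at ligands. The same rate was 0.356 for all protein-coding genes and 0.552 for those of at most 20 kb. Receptors therefore lay above both backgrounds by this measure, and ligands lay between them. Of the 36 library 2 peaks at receptors, 17 lie at 7 neighbouring receptor genes on chromosome 9, described below. Those genes include 6 of the 15 receptors with a peak. The 58 members as a whole had 0.619 peaks per 10 kb, above all protein-coding genes, although their share of genes with a peak was below.

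In library 3 a peak was found at 5 members, Cxcr4, Cxcr5, Xcr1, Cxcl17 and Ccl28 (8.62%, 2.86 to 19.0). The share was 15.1% over all protein-coding genes and 8.75% over those with spans of at most 20 kb, so the members' share was close to that of short genes. Per 10 kb of window the order turned here too, with 0.0666 library 3 peaks at members and 0.0311 at all protein-coding genes. Protein-coding genes of at most 20 kb had 0.0506, nearer to the members. The members' rate rests on 7 peaks, of which 3 lie at Cxcr5. A library 3 peak was found at 3 of 19 receptors (15.8%, 3.38 to 39.6) and 2 of 39 ligands (5.13%, 0.627 to 17.3). All 7 library 3 peaks at these members overlapped a library 2 peak, as did all 6169 of the list, so the same 5 members had a peak shared by both libraries, against 15.3% of all protein-coding genes. In the merged list 27 members had an interval (46.6%, 33.3 to 60.1) after each was given to 1 member, or 28 (48.3%) where every overlapping window counts, as it does in the 62.6% of protein-coding genes.

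**Figure D1:**
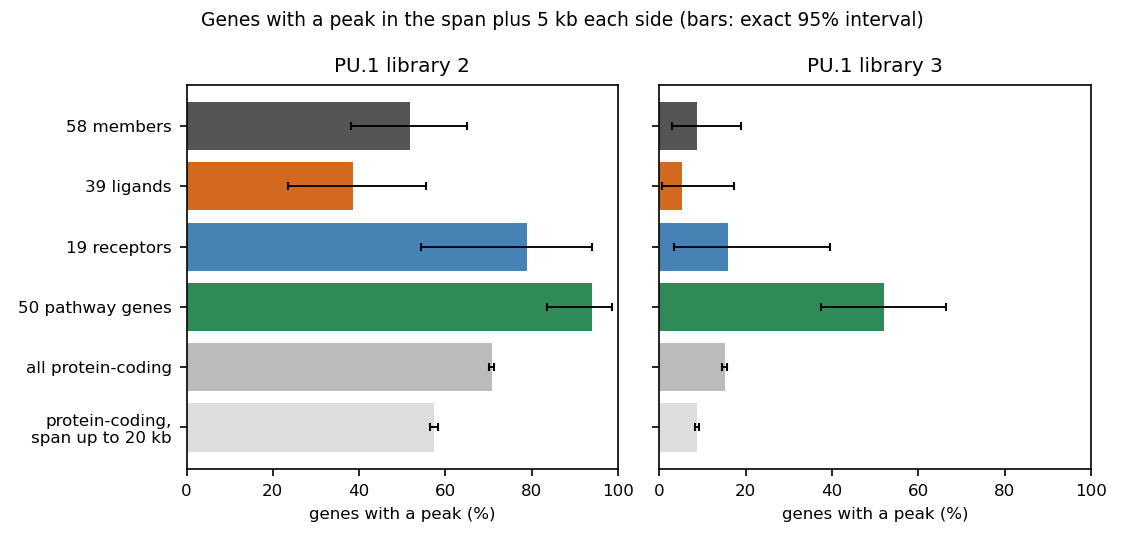
Percent of genes with a PU.1 peak overlapping the gene span plus 5 kb on each side, in library 2 (left) and library 3 (right), with error bars showing exact binomial 95% intervals. In library 2 the receptors stand at 78.9% and the ligands at 38.5%, on either side of the 70.7% of all protein-coding genes. In library 3 the 50 other genes of the pathway (43 downstream genes and 7 family genes) stand at 52.0%. Those 50 were chosen with earlier results of these data known.

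The 65 library 2 peaks given to members were typical of peaks near genes in height. Their median score was 308, where peaks within 5 kb of any protein-coding gene had a median of 270. Near protein-coding genes of at most 20 kb the median was 318. It was 473 for the 36 receptor peaks and 267 for the 29 ligand peaks, a difference that was not tested. Of the 65 peaks, 9 lay in the highest 10% of library 2 scores, at 1660 or more (13.8%, and 11.0% for all genes). Of those 9, 6 overlapped a library 3 peak (66.7%, and 70.5% for all genes), and of the 56 lower peaks none did, where 427 of 37464 lower peaks near all genes did. Peaks of library 2 and library 3 thus met at the members only where library 2 scores were high. This was mostly so near all genes too, where 3257 of 3684 shared peaks were in the highest 10%, so it does not set the members apart.

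Cxcr4, the receptor for Cxcl12, had the highest library 3 score of all members. Its single library 2 peak spanned chromosome 1, 128590398 to 128591972, with a score of 3100. The library 3 peak, at 128590423 to 128591503, scored 377.77 and ranked 675 of 6169, above 89.1% of that list. Both lie inside the 4101 bp gene span (chromosome 1, 128588199 to 128592299, minus strand), with centres 1.11 kb and 1.34 kb downstream of the RefSeq start site. The peaks did not reach the window from 250 bp before to 50 bp after that start. Exons and introns were not separated by the gene table used here.

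Cxcr5, the receptor for Cxcl13 that brings B cells to follicles, carried more library 3 peaks than any other member. Library 2 had a peak of 1386 bp across the lower-coordinate end of the gene (chromosome 9, 44511569 to 44512954, score 2545.39) and a peak of 3271 bp inside it (44513722 to 44516992, score 3100). The larger one was the widest of the 65. Library 3 split the same ground into 3 peaks with scores of 141.21, 158.65 and 89.63, the last of them above 21.8% of that list. The first pair also overlapped Bcl9l, whose span ends within that of Cxcr5, so those peaks belong to either gene by position.

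Xcr1, the receptor for Xcl1 known from cross-presenting dendritic cells, had a shared peak upstream of its start. The library 2 peak (chromosome 9, 123862855 to 123864246) scored 3100 and was centred 1.52 kb before the start site, 825 bp beyond the span. The library 3 peak within it scored 185.96 and ranked 2071 of 6169. At the other end of the gene, library 2 had a peak of 2757 bp scored 965.09 that also overlapped Fyco1 and had no partner in library 3.

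The 2 ligand genes with a shared peak had it outside their spans. At Cxcl17, a mucosal chemokine, peaks of 2525.2 in library 2 and 123.46 in library 3 lay 3217 bp and 3964 bp beyond the lower-coordinate end of the span, inside Lipe, which encodes hormone-sensitive lipase. The nearest protein-coding gene of both is Lipe. At Ccl28, an epithelial chemokine that attracts plasma cells through Ccr10, peaks of 2435.66 and 85.55 lay 3035 bp and 3147 bp beyond the span, with centres 34.1 kb and 34.2 kb downstream of the start site. Ccl28 was the nearest protein-coding gene there, and its library 3 score was in the lowest 17.9% of the list.

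**Figure D2:**
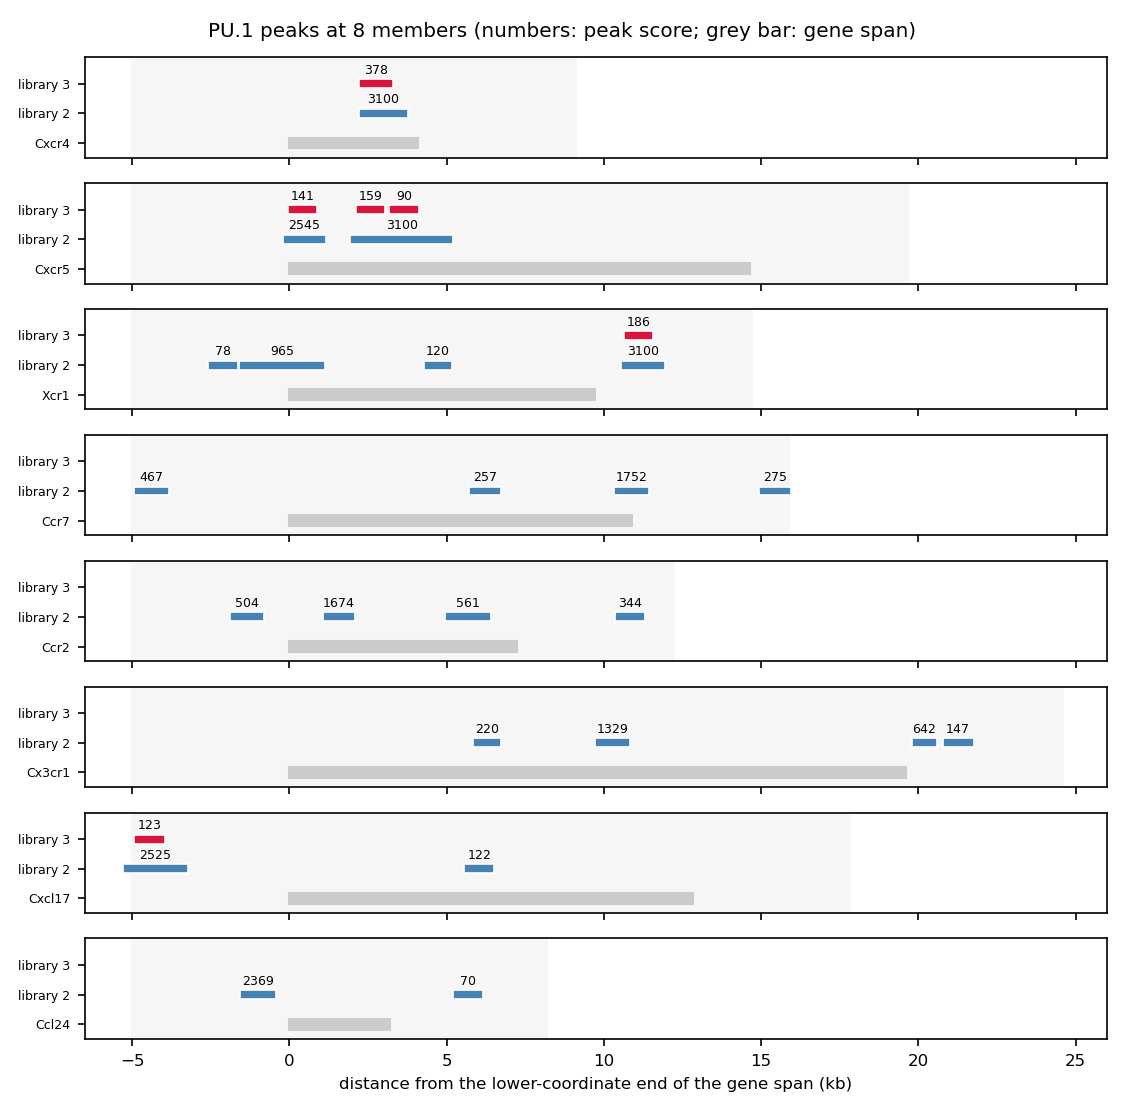
PU.1 peaks at 8 members, drawn in kb from the lower-coordinate end of each gene span (grey bar), with library 2 in blue, library 3 in red and the peak score printed above each. Cxcr4, Cxcr5 and Xcr1 reach 3100 in library 2 and carry library 3 peaks, whereas Ccr7, Ccr2, Cx3cr1 and Ccl24 have library 2 peaks alone.

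The receptors used by B cells and lymphoid progenitors, grouped here by textbook use, had a library 2 peak at 5 of 6 members and a library 3 peak at 2, where 70.7% and 15.1% of all protein-coding genes had one. So few genes give no reading against those shares. Ccr7, which guides cells towards Ccl19 and Ccl21 in lymph nodes, had 4 library 2 peaks with scores of 466.59, 256.86, 1752.32 and 275.39. The strongest overlapped the higher-coordinate end of the span (chromosome 11, 99154513 to 99155649) and stood above 90.7% of the list, without a library 3 peak. Ccr9, the receptor for Ccl25 that directs cells to thymus and gut, had a peak of 817.05 centred 3.90 kb before its start and one of 117.87 across it. Ccr6, the receptor for Ccl20, had 3 peaks, the best scored 714.62 and centred 13.3 kb downstream of a start site. Ccr10 had none, and its nearest library 2 peak lay 16.5 kb away.

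Of the 7 receptors of myeloid recruitment described here, 6 had a library 2 peak and none a library 3 peak. With 70.7% and 15.1% over all protein-coding genes, neither count sets this group apart. Ccr2, the receptor that draws monocytes towards Ccl2, had 4 peaks, scored 504.09, 1674.17, 561.11 and 344.12, with the strongest centred 1.31 kb downstream of the start. Cx3cr1, the fractalkine receptor, had 4 as well, led by one of 1328.96 deep in the gene, 9.34 kb downstream of the start, and one of 642.29 just before it. Cxcr2, a neutrophil receptor, had peaks of 102.15 and 784.92. Ccr1, a receptor for inflammatory CC ligands, had a single peak of 80.29. Ccr1l1, named after its values were seen, reached 1159.09. Cxcr1, also named so, had the lowest best score, 72.93. Ccr3, an eosinophil receptor, had no peak and lay 19.2 kb from the nearest. The spread of best scores within this group, from 72.93 to 1674.17, is the range from just above the lowest score of the list to its highest 10%.

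Receptors of T cells and dendritic cells other than Xcr1 had best library 2 scores of at most 478.67. Cxcr3, the receptor for Cxcl9 and Cxcl10, had a peak of 347.43 over its start site. Cxcr6, named after its values were seen, had 3 peaks of 251.68, 120.87 and 478.67, all inside the span of Fyco1, in which Cxcr6 is nested. Ccr4 and Ccr8 had no peak, with the nearest library 2 peaks 67.8 kb and 5.93 kb away.

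**Figure D3:**
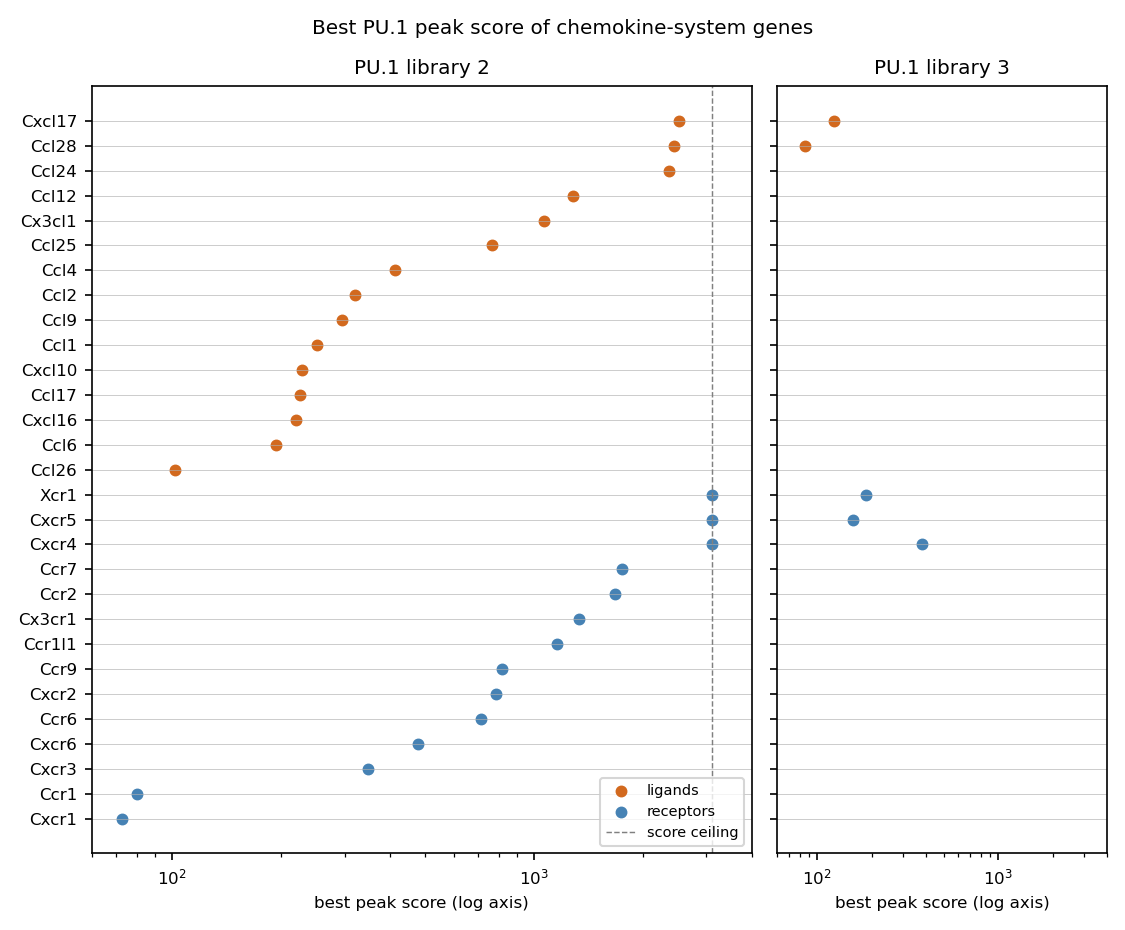
Best peak score (log axis) of 29 of the 30 members with a library 2 peak, in library 2 (left) and library 3 (right), with receptors in blue and ligands in orange and the score ceiling of 3100 as a dashed line. Cxcr4, Cxcr5 and Xcr1 lie at the ceiling, Cxcl17, Ccl28 and Ccl24 lead the ligands, and those members other than Ccl24 are the 5 with a library 3 point.

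Among ligand genes, the CC family had library 2 peaks at 11 of 25 members and the CXC family at 3 of 12. Cx3cl1 had peaks and Xcl1 had none. The median of the best scores was 321 for the 15 ligands with a peak and 817 for the 15 receptors with one. These medians leave out the members without a peak.

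After Cxcl17 and Ccl28, the highest-scored ligand was Ccl24, an eosinophil attractant, with a library 2 peak of 2368.69 that lay 420 bp beyond its span (chromosome 5, 135568359 to 135569514) and no library 3 peak. The same peak is within 5 kb of the neighbouring Ccl26. Ccl12, a mouse ligand of Ccr2, had a peak of 1286.41 centred 0.325 kb before its start. Cx3cl1, the membrane-bound ligand fractalkine, had peaks of 1067.64, 551.17 and 269.84, with the strongest 3.67 kb before the start. Ccl25, the thymic and gut ligand of Ccr9, had 6 peaks, more than any other member, with scores from 92.11 to 766.55, and the highest of them lay inside Elavl1. Ccl4 and Ccl2, both induced by inflammatory signals, had single peaks of 413.5 and 321.01.

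The ligands of Cxcr4, Cxcr5, Ccr7 and Ccr6 had no peak in either library within 5 kb. The nearest library 2 peak was 8.83 kb from Cxcl12 and scored 533.05, and it was 15.2 kb from Cxcl13 and scored 122.02. It was 114 kb from Ccl19, 96.9 kb from Ccl21a and 27.0 kb from Ccl20. The receptors themselves carried library 2 peaks. Xcr1 and Cxcr2 likewise had library 2 peaks, while none of their listed ligands had one. In other pairs both sides had one, such as Ccr9 and Ccl25, Cx3cr1 and Cx3cl1, and Cxcr6 and Cxcl16. This also held for Cxcr3 with Cxcl10, Ccr2 with 2 of 3 listed ligands and Ccr1 with 2 of 5. The Cxcl10 peak overlapped Art3, and the Cxcl16 peaks overlapped Med11. Where each peak goes to the nearest protein-coding gene, Cxcl10, Cxcl16 and Cxcr6 have none. Only 15 of 39 ligands had a library 2 peak, so a ligand without one is common. The inverse was seen at Ccr10, Ccr3, Ccr4 and Ccr8, which had no peak while at least 1 ligand of each had one, Ccl28 in the case of Ccr10.

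Other ligands without a peak were Ccl3, Ccl5, Ccl22 and Cxcl2. The nearest library 2 peak was 6.94 kb from Ccl3, and 5.13 kb from Ccl5, where it scored 2070.74 and missed the window narrowly. It was 11.5 kb from Ccl22 and 7.41 kb from Cxcl2. The table gives Ccl4 a span of 16060 bp that overlaps part of Ccl3. In all, 28 members had no library 2 peak, at a median of 13.9 kb from the nearest, and 9 of them had one within 10 kb.

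Chemokine genes lie in clusters, and the clusters differed in how many peaks they held. Members less than 500 kb apart were grouped. The 7 receptor genes from Ccr9 to Ccr2 on chromosome 9 spanned 342 kb and held 30 library 2 peaks between their outer ends, or 8.77 per 100 kb, where the whole list averaged 2.80. That average includes stretches far from genes. Within 5 kb of gene spans, library 2 had 0.356 peaks per 10 kb for all protein-coding genes and 0.552 for those of at most 20 kb. These rates are per 10 kb and cover gene windows alone. The cluster rate is per 100 kb and counts every peak between the outer ends, also those given to no member. Of the 7 receptor genes 6 had a library 2 peak and 1, Xcr1, a library 3 peak. A second library 3 peak in this stretch was within 5 kb of no member. The CC ligands from Ccl5 to Ccl4 on chromosome 11 held 13 library 2 peaks in 139 kb (9.36 per 100 kb), of which 5 were given to members, and those from Ccl2 to Ccl1 held 5 in 144 kb (3.47).

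**Figure D4:**
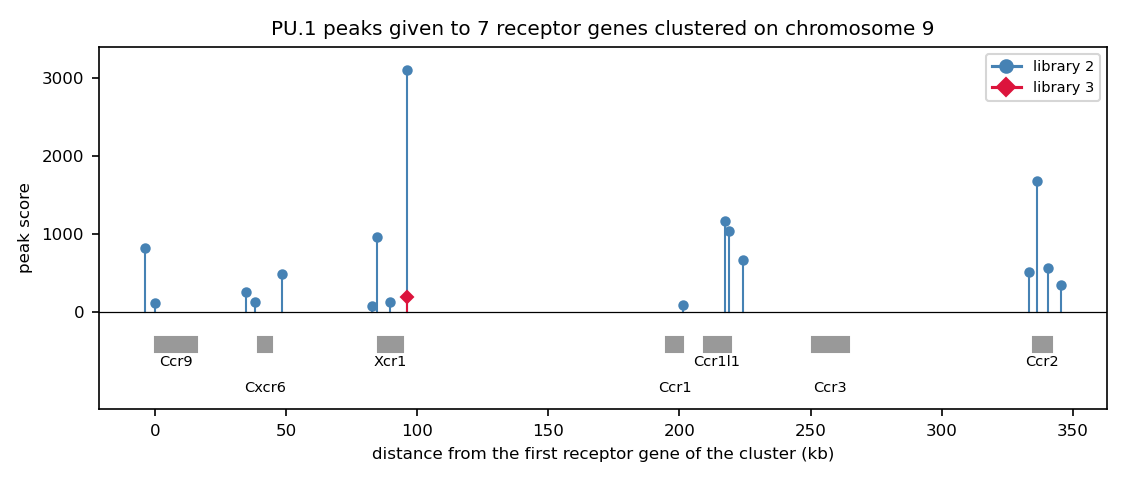
PU.1 peaks given to the 7 receptor genes from Ccr9 to Ccr2 on chromosome 9, with distance from the first gene in kb on the horizontal axis and peak score on the vertical, library 2 as blue circles and library 3 as a red diamond. The peak of 3100 beside Xcr1 is the one with a library 3 partner (185.96), and Ccr3 is the gene without a peak.

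By contrast, the CXC ligands from Cxcl5 to Cxcl2 on chromosome 5, which attract neutrophils through Cxcr2, had no peak at any of 5 genes and 3 library 2 peaks in 147 kb (2.05 per 100 kb). The 6 genes from Ccl27a to Ccl21a on chromosome 4 had none between their ends. That stretch holds near-identical copies of Ccl21 and Ccl27 genes, and the sources used here do not say how reads that align in several places were treated, so the part of alignment in this absence was not tested. Ccl21c is listed before the first library 2 peak of chromosome 4, as 1 of 27 genes of the table, and without it 30 of 57 members had a library 2 peak.

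Relative to start sites, which the promoter table gave for 43 members, the library 2 peaks were spread on both sides. Of 49 peaks at these members, 21 were centred upstream and 28 at or downstream of the nearest start, and 10 within 1 kb of it. Of all 65 peaks, 34 overlapped the member's span, and 11 had another protein-coding gene as the nearest.

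Promoter windows of members met library 2 peaks at a smaller share than those of all genes, a difference that was not tested. Of 50 member promoters (250 bp before to 50 bp after a start), 8 overlapped a library 2 peak (16.0%), where 35.1% of 21263 protein-coding promoters did, and none overlapped a library 3 peak. As 2.73% of all promoters overlapped one, a count of 0 among 50 is near that share. The letters GAGGAA, common to many PU.1 sites, were searched on both strands. They occurred in 3 of the 8 member promoters under a peak and in 16 of the other 42. Among all protein-coding promoters the share with GAGGAA was 27.4%, and it was 30.4% under library 2 peaks and 46.0% under library 3 peaks. The shorter core GGAA, contained in GAGGAA, was found in 95.7% of all promoters and so tells promoters little apart. A match is a description of the letters and not a bound site.

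The promoters below are those under a library 2 peak whose gene is named here by rule and which hold GAGGAA, followed by that of Cx3cr1, the highest-scored such promoter without it. The promoter of Ccr1l1, which that rule does not name, was under a peak of 1037.67 and also lacks the letters. Each is read 5′ to 3′ on the gene's strand from RefSeq (GRCm38.p6), with GAGGAA or its reverse complement TTCCTC in capitals. In Ccl12 (chr11:82101595-82101894, plus strand, peak score 1286.41) the letters begin at position -130 from the start site. In Ccr1 (chr9:123968643-123968942, minus strand, 80.29) they begin at -129. In Cxcr3 (chrX:101734098-101734397, minus strand, 347.43) the complement begins at -14. The window of Cx3cr1 is chr9:120068247-120068546 on the minus strand (642.29).
Ccl12: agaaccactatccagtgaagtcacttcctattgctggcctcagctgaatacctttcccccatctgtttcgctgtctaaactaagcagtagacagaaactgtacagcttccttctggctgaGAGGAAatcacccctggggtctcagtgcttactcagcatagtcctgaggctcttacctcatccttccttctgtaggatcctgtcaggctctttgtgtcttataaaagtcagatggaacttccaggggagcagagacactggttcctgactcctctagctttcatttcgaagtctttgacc
Ccr1: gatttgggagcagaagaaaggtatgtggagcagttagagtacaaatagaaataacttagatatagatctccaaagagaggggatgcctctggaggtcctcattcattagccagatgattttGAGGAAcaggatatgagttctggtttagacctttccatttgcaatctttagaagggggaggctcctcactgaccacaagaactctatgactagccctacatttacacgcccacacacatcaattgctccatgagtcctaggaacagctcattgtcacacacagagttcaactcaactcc
Cxcr3: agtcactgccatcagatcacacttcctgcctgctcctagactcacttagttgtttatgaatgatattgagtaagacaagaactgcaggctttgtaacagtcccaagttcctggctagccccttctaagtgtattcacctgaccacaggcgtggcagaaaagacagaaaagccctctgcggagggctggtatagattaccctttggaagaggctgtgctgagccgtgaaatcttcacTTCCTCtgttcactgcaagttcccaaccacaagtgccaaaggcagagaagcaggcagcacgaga
Cx3cr1: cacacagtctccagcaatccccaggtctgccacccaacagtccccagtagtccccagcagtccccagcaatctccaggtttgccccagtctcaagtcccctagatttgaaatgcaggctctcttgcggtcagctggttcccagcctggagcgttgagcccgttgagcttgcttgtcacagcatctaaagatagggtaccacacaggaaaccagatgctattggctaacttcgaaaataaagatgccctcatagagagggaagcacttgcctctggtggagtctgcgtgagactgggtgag

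Of the 7 library 3 peaks at members, those at Cxcr4, Xcr1 and Ccl28 missed the promoter windows, and Cxcr5 and Cxcl17 had no window in the table.

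Genes listed here as acting downstream of chemokine receptors carried PU.1 peaks at larger shares than the members did. The list was chosen with earlier results of these data known, so its larger shares may reflect that choice. Of 51 names in a list of other pathway genes, 50 were matched, of which 43 are downstream genes and 7 are chemokine family genes outside the symbol rule. Among the 43, a library 2 peak was found at 42 (97.7%) and a library 3 peak at 26 (60.5%, exact binomial 95% interval 44.4 to 75.0), where 70.7% and 15.1% of all protein-coding genes had one. Effectors of migration had library 3 peaks at 16 of 21, genes of desensitisation and RGS proteins at 7 of 14, and G protein subunits at 3 of 8. A peak within reach of several listed genes was counted for each of them. The other family genes, such as the atypical receptors, had library 2 peaks at 5 of 7 and library 3 peaks at none, with Ackr2, a scavenger of CC chemokines, best in library 2 at 1967.07. The downstream genes were longer than the members, with a median span of 35.3 kb. Among those with spans of at most 20 kb, 7 of 14 had a library 3 peak (50.0%, 23.0 to 77.0), where 4 of 54 members (7.41%, 2.06 to 17.9) and 8.75% of protein-coding genes of that length did. The difference between the lists was not tested.

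The 8 pathway genes with the highest library 3 scores all reached 3100 in library 2. Near all protein-coding genes, 1566 of 3684 shared library 2 peaks did so, and a gene's best scores in the 2 lists need not belong to the same place. Prex1, an exchange factor for Rac activated by G protein βγ subunits, had a library 3 score of 803.85, and Pik3cg, the βγ-activated PI3-kinase, one of 781.88. Rap1a, a GTPase of integrin activation, had 671.15 and Coro1a, an actin regulator, 429.13. Pik3cd, Fgd2, Rgs2 and Elmo1 had 313, 298.43, 256.05 and 252.59. Of these 8 scores, the first 4 exceed that of Cxcr4 (377.77), the highest among the 58 members.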

How the data were processed

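Peak positions and scores were analysed as deposited. Per the submitters' processing notes, reads were processed with Trim Galore, Bowtie and MACS 1.4.1 on mm10. Which versions of Trim Galore and Bowtie, which control and which way of merging were used is not stated by the labels. The score in each deposited list, read here as a scaled minus log10 p-value, has no normalization between libraries. The merged list has a score of 0 throughout and gave positions alone.

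With Python 3.11.15, pandas 2.3.3 and scipy 1.17.1, peaks were set against RefSeq gene spans. A peak was given to the member with the smallest gap to its span, then to the one with the nearer span end. Overlap code was tested on simulated intervals. Members, lists and roles were chosen with earlier results of these data known. Named are members with a library 3 peak, the 10 with the highest library 2 scores, and a set list of receptors and ligands of B cell, myeloid and T cell migration. One member of that list is counted in the totals but is not reported here by name. Other pathway genes came from 4 groups fixed likewise, the 8 with the best scores named. Backgrounds were all protein-coding genes. Alternatives were other windows, a score of at least 100, other rules for giving peaks to genes, 50% overlap, and each library alone. No test was run, since 2 libraries of 1 condition allow none.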

Additional observations from a re-analysis of the deposited data

How the results depend on the processing

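No paired analysis was possible because both libraries belong to 1 group. Of 78 alternative values, 53 stayed near the reported ones, 21 moved and 4 changed direction. With 50 kb on each side, 49 members had a library 2 peak, 47 a merged interval and 19 a library 3 or a shared peak. Those were 31 ligands in library 2, and 9 ligands and 10 receptors among the shared. With the gene span alone, 2 members had a library 3 or shared peak, 9 ligands had a library 2 peak and 0 ligands a shared one. With 1 kb, 3 members had a library 3 or shared peak and 0 ligands a shared one, and with 10 kb 4 ligands did. Ligands with a shared peak numbered 1 with scores of at least 100, 1 with 50% overlap of both peaks and 1 where Lipe, the nearest gene, takes the Cxcl17 peak. Using 1 library alone, without replicate 2 or without replicate 3, the members called ranged from 5 to 30, ligands from 2 to 15 and receptors from 3 to 15.

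The members' share divided by that of all protein-coding genes was 0.732 in library 2, 0.571 in library 3, 0.563 for shared peaks and 0.771 for merged intervals. Counted as peaks per 10 kb of window, all 4 ratios turned from below 1 to above it, to 1.74, 2.14, 1.83 and 1.93. The members' rates lay closer to those of protein-coding genes of at most 20 kb. In the same order, members had 0.619, 0.0666, 0.0571 and 0.486 peaks per 10 kb, and those short genes 0.552, 0.0506, 0.0509 and 0.417. Between genes of at most 20 kb, added after the data were seen, the ratio of shares was 0.873 and 0.846 in the 2 libraries. Scores at the ceiling cannot be ranked, and read depth is unknown.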

Other observations

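Beyond the 5 kb windows, library 3 peaks lay near further members. Ccr8, a receptor of skin-homing T cells, had one 13.0 kb away with a score of 362.15, and Cxcl9, an interferon-induced ligand of Cxcr3, one 41.4 kb away with a score of 302.36. With 10 kb on each side, Cxcl16 and Ccl17 joined the 5 members with a library 3 peak, at gaps of 6.52 kb and 6.43 kb and scores of 201.15 and 83.59. These genes were named after their values were seen, and other genes may lie nearer to the same peaks.

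Library 2 peaks at Ccl26, Ccr1 and Cxcr1, with best scores of 102.17, 80.29 and 72.93, were the 3 cases of a member with a library 2 peak given to it and no merged interval.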
